A study of Homo sapiens with 6 samples.

Results

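Translation factors are the soluble proteins that start a protein chain on the ribosome (eukaryotic initiation factors, eIF) and extend it (eukaryotic elongation factors, eEF), and their genes carry names that begin with EIF1 to EIF6, EEF1 or EEF2. The deposited table holds 26524 genes, and 72 names begin this way. The kinases and binding proteins that regulate the factors (names beginning with EIF2AK, EIF4EBP or EIF4ENIF, 9 genes) were left out, as were 5 antisense or divergent transcripts, and 58 genes remained. They comprised the factors themselves and 6 genes of enzymes that modify elongation factors. The members were matched by name and not by their values, although the list was chosen with earlier results of these data known.

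The RNA came from SCC25, an established human epithelial line grown from a tongue squamous carcinoma. In the shLIS1 group, 3 libraries were made from cells in which PAFAH1B1, the gene of the dynein regulator LIS1, was targeted with a short hairpin, and in the control group, 3 libraries were made from cells labelled as control in genotype and treatment. The labels give no age of culture, no duration of the knockdown, no clone and no word on a hairpin in the controls, and it is not stated whether the 3 numbered hairpin libraries are separate hairpins or separate cultures. The p-values therefore measure only the spread between these libraries, which may be technical.

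Initiation begins when eIF2 brings the initiator tRNA to the small ribosomal subunit, with eIF3, eIF1 and eIF1A already bound. The eIF4F complex (cap-binding eIF4E, the scaffold eIF4G and the RNA helicase eIF4A) recruits this assembly to the capped end of an mRNA, and eIF5B then joins the large subunit at the start codon. In elongation, eEF1A delivers each aminoacyl-tRNA, the eEF1B complex reloads eEF1A with GTP, and eEF2 moves the ribosome along by a codon. Messengers of elongation factors and of some initiation factors are known for a terminal oligopyrimidine (TOP) start, a cytosine at the first base followed by further pyrimidines, through which growth signals control their translation in many mammalian cells.

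Annotated starts of 8 of the 13 factor genes found here with a TOP start are shown first, chosen for having it and including genes that rose, fell or did not pass the test. Each line gives 10 bases before the start and 20 bases from it, 5′ to 3′ on the transcript's strand, from RefSeq on GRCh38.p14, and the capitals mark an unbroken run of C and T from the first transcribed base where that base was C and at least 4 more pyrimidines followed. EEF1A1 and EEF2 encode the tRNA carrier and the translocase, EEF1B2 an exchange factor, EIF3F, EIF3K and EIF3M subunits of eIF3, EIF2S3 the GTP-binding subunit of eIF2, and EIF4A2 a helicase.
EEF1A1, chr6:73521013-73521042, minus strand: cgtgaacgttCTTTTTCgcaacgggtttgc
EEF1B2, chr2:206159885-206159914, plus strand: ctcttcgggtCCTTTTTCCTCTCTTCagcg
EEF2, chr19:3985444-3985473, minus strand: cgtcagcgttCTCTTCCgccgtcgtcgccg
EIF3F, chr11:7987327-7987356, plus strand: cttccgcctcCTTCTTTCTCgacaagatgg
EIF3K, chr19:38619178-38619207, plus strand: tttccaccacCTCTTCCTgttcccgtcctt
EIF3M, chr11:32583821-32583850, plus strand: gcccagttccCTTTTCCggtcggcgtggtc
EIF2S3, chrX:24054946-24054975, plus strand: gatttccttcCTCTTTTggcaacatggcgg
EIF4A2, chr3:186783567-186783596, plus strand: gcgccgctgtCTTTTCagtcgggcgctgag
By the same reading, no such run stood at the annotated starts of EIF5B, the subunit-joining GTPase, or of EIF4E, the cap-binding protein, which are shown in lower case for comparison.
EIF5B, chr2:99337379-99337408, plus strand: ctgagaactcacaccatatgtgtcctgttc
EIF4E, chr4:98929114-98929143, minus strand: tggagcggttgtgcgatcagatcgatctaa

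Total counts ranged from 15661916 to 22790599 per library, so that 3 counts, the most that a count of 0 allows, corresponded to between 0.130 and 0.192 CPM (counts scaled to library size, a rate within each library), which covers counting error only. PAFAH1B1 stood at 157, 165 and 154 CPM in the control group and at 111, 109 and 113 CPM in the shLIS1 group, and fell to 69.8% of the control mean (log2 fold change -0.52, SE 0.051, adjusted p = 6.5e-08, edgeR). On the second principal component, control library 1 stood at 27.1 and the other control libraries at -16.4 and -14.1. All 8 epithelial markers were detected, with a summed level of 13281 to 13580 CPM in control and 11996 to 12936 CPM in shLIS1 libraries. The summed level of 7 fibroblast markers was 17.1 to 21.9 CPM in control and 13.3 to 15.9 CPM in shLIS1 libraries. Most of it was COL1A1, at 12.8 CPM in control and 8.98 CPM in shLIS1 libraries on average, while DCN and THY1 were at or near 0. COL1A1 (log2 -0.50), COL1A2 (-0.97) and PDGFRB (-1.02) were lower at an adjusted p below 0.05 (edgeR), and LUM (0.33) did not pass. Of 6 immune markers, 4 were in the table, at 13.8 to 14.9 CPM in control and 7.81 to 8.96 CPM in shLIS1 libraries, nearly all of it CD14, with CD68 and LYZ at or near 0. Of 4 endothelial markers, 3 were in the table, at 12.8 to 17.1 and 7.15 to 8.54 CPM, mostly CDH5, and 2 of 4 Schwann cell markers, at 0.249 to 0.770 and 0.113 to 0.325 CPM. Counts on the mitochondrial genome made up 5.46 to 6.15% of control and 7.45 to 7.68% of shLIS1 libraries. The part of these differences in the results was not tested. In bulk RNA, fewer cells of a kind and less RNA per cell cannot be told apart.

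Each gene was tested with the edgeR quasi-likelihood test on counts, shLIS1 against control, and an adjusted p below 0.05 over all 14964 genes tested is called a change here. All 58 translation factor genes passed the filter on low counts. Of these, 13 rose and 20 fell in shLIS1 libraries, while 25 did not pass the test. Thus 56.9% of the members were called, beside 48.4% of all genes tested. The rises were 22.4% of the members, beside 23.5% of all genes, and the falls were 34.5%, beside 24.9% of all genes. The share of rises was thus near that of all genes. The CPM of the groups did not overlap for 37 members, 63.8%, beside 56.1% of all genes. The median log2 fold change was -0.073 over the members and -0.011 over all genes.

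Most changes were small. The rises ranged from 0.15 (EIF2S3) to 1.04 (EIF5B) on the log2 scale and the falls from -0.14 (EIF4H) to -0.74 (EEF1A2), and 1 member, EIF5B, changed at least 2-fold. Members past and short of the threshold overlapped in size, since the largest difference that did not pass was -0.25 (EEF1AKMT4). Log2 fold changes in these libraries also went with transcript length and GC content, as described after the roles. For this reason a second value is given beside some results, from a fit in which the trend of each library over length and GC content enters as an offset, and is called the value with the offset. With the offset, 41.8% of the 14491 genes with known length were called, 17.7% as higher and 24.0% as lower. Of the 58 members, 7 were higher and 25 lower with the offset. The members' share of rises was thus below that of all genes there, and their share of falls above it. When 1 library was left out, 9 to 15 members were called higher and 17 to 23 lower.

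**Figure D1:**
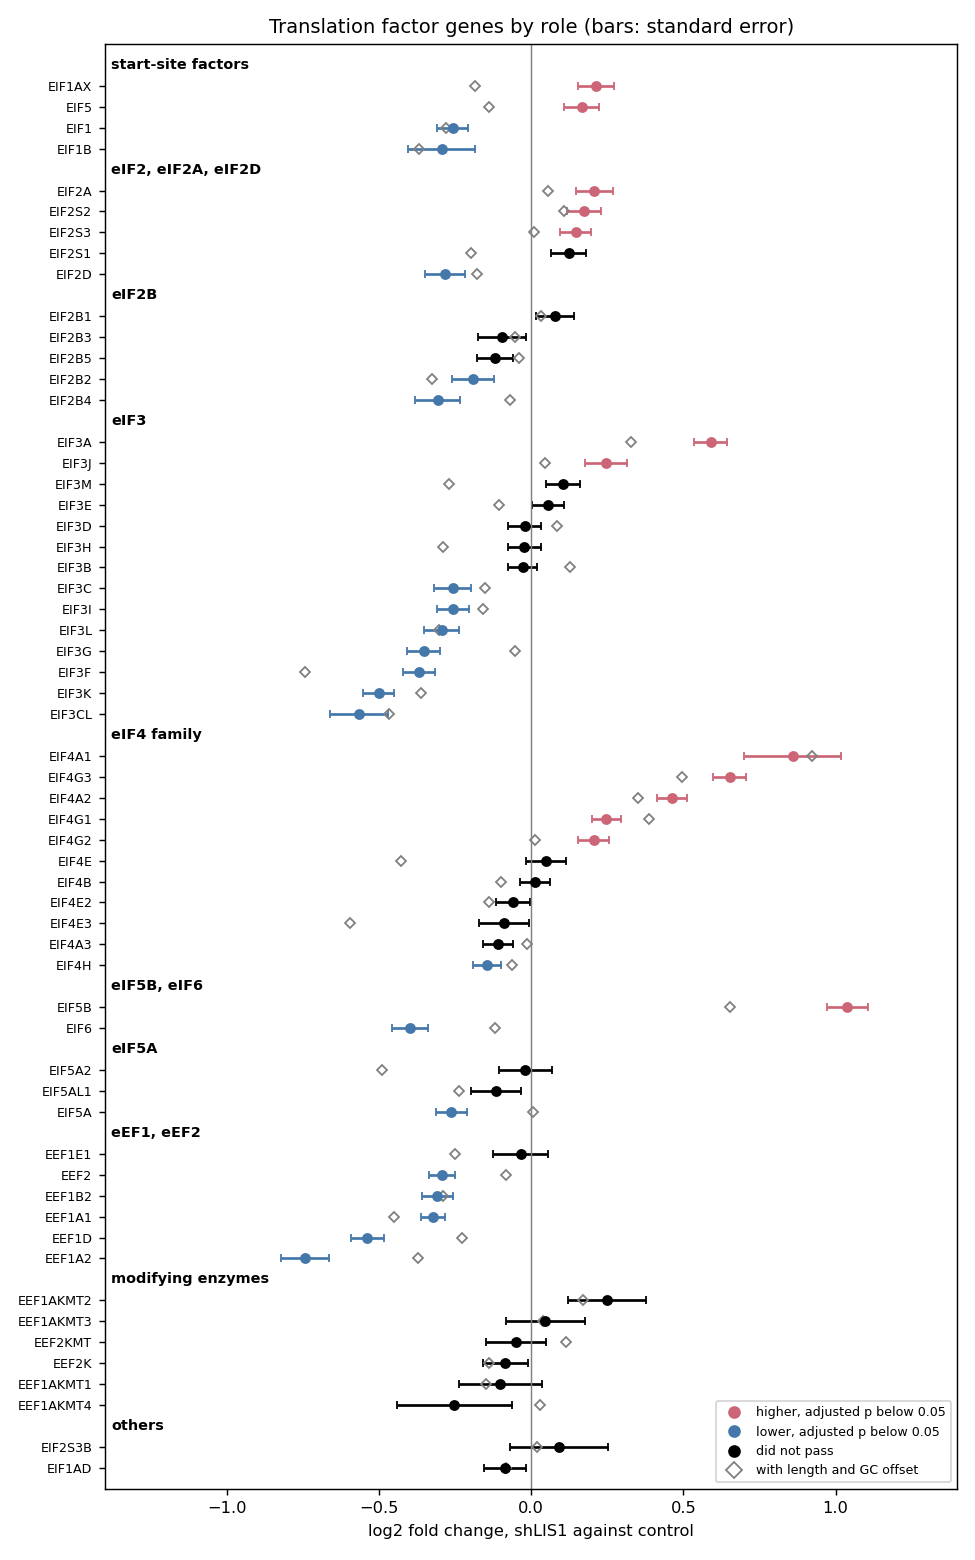
Log2 fold change (x axis, shLIS1 against control) of the 58 translation factor genes, grouped by role (y axis), with bars for the standard error, red for the 13 that rose, blue for the 20 that fell and black for those that did not pass. Open diamonds give the value with the length and GC offset. EIF5B lies farthest right at 1.04 and EEF1A2 farthest left at -0.74, and 5 of the 6 eEF1 and eEF2 genes are blue.

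Among the factors that carry the initiator tRNA, 3 of 5 genes rose and 1 fell (80% called, beside 48.4% of all genes). With the offset none was higher and 2 were lower. EIF2S1, the alpha subunit of eIF2 and the target of the stress kinases, stood at 202, 232 and 215 CPM in control and 233, 242 and 233 CPM in shLIS1 libraries (values by library are given in the order of the library numbers). Every shLIS1 library was above every control library, but the difference did not pass the test (log2 0.12, adjusted p = 0.079, edgeR). EIF2S2, the beta subunit, stood at 305, 345 and 321 CPM in control and 364, 370.2 and 361 CPM in shLIS1 libraries. The groups did not overlap, and it rose by log2 0.17 (SE 0.055, adjusted p = 0.013). EIF2S3, the gamma subunit that binds GTP and the tRNA, measured 356, 379 and 368 CPM in control and 398, 415 and 409 CPM in shLIS1 libraries, again without overlap, a rise of log2 0.15 (SE 0.051, adjusted p = 0.022). With the offset neither EIF2S2 (0.11) nor EIF2S3 (0.011) passed, and EIF2S1 was lower (-0.20, adjusted p = 0.0014). Counts of EIF2S3 may include reads of EIF2S3B, a near-identical copy at 4.62 CPM in control and 4.93 CPM in shLIS1 libraries on average (log2 0.091, did not pass).

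EIF2A, a protein unrelated to the alpha subunit that can also bring initiator tRNA to the ribosome, stood at 187, 214 and 213 CPM in control and 232, 249 and 228 CPM in shLIS1 libraries. All shLIS1 libraries were above all control libraries, and it rose by log2 0.21 (SE 0.06, adjusted p = 0.0072), with 0.055 and no call with the offset. EIF2D, another non-canonical tRNA-delivery factor, fell by 0.28 on the log2 scale, from 57.5 ± 1.10 to 47.3 ± 2.64 CPM (SD, n = 3 each) (adjusted p = 0.0013), and was lower with the offset too (-0.18). The 3 rises rest on single libraries in part: without control library 3, EIF2S3 and EIF2S2 had adjusted p = 0.08 and 0.063. Without shLIS1 library 2, EIF2S3, EIF2S2 and EIF2A had adjusted p = 0.11, 0.065 and 0.067. EIF2S3 also lost its call without shLIS1 library 3 (0.067), and EIF2S1 was called without control library 2 (0.017).

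None of the 5 genes of eIF2B, the exchange factor that reloads eIF2 with GTP, rose, and 2 fell (1 of them, EIF2B2, also with the offset). The calls without the offset were 40% of these genes, near the 48.4% of all genes. EIF2B4, the delta subunit and the lowest of the 5 by fold change, stood at 42.7, 40.9 and 41.9 CPM in control and 35.4, 35.2 and 30.8 CPM in shLIS1 libraries. The groups were apart, with a fall of 0.31 on the log2 scale (SE 0.075, adjusted p = 0.0019), and with the offset the difference was -0.068 and did not pass. EIF2B1, the alpha subunit and the highest of the 5, measured 68.4, 79.6 and 79.2 CPM in control and 82.3, 80.8 and 77.1 CPM in shLIS1 libraries, groups that overlapped (log2 0.078, adjusted p = 0.33). EIF2B2, the beta subunit, fell from 41.5 ± 0.809 to 36.3 ± 0.810 CPM (SD, n = 3 each) (log2 -0.19, adjusted p = 0.026), and was lower with the offset as well (-0.33, adjusted p = 2.4e-04). That call was lost without control library 2 or 3 or shLIS1 library 1 or 3 (adjusted p between 0.064 and 0.081), and 23.6% of the gene's exonic bases overlap a gene on the other strand. EIF2B5, the catalytic epsilon subunit (log2 -0.12), and EIF2B3, the gamma subunit (log2 -0.096), did not pass, although EIF2B5 was called without control library 1 (adjusted p = 0.013) and without shLIS1 library 1 (0.0498).

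The factors that guide scanning and the choice of start codon went both ways, with 2 rises and 2 falls among 4 genes, but all 4 were lower with the offset. Over all genes 48.4% were called, and 24.0% were lower with the offset. EIF1, which guards against initiation at wrong codons, stood at 470.2, 514 and 491 CPM in control and 400.2, 412 and 421 CPM in shLIS1 libraries. Every shLIS1 library was lower, and the fall was 0.26 on the log2 scale (SE 0.052, adjusted p = 3.2e-04; -0.28 with the offset). EIF1B, its close paralogue, was low throughout, at 11.5, 14.5 and 14.3 CPM in control and 10.5, 11.4 and 11.1 CPM in shLIS1 libraries. It fell by 0.29 (SE 0.110, adjusted p = 0.032), a call that was lost when any library other than control library 1 was left out (adjusted p between 0.055 and 0.14).

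EIF1AX, the X-linked gene of eIF1A, which promotes scanning, measured 140.2, 166 and 155 CPM in control and 172, 175 and 187 CPM in shLIS1 libraries. No shLIS1 library was as low as a control library, and EIF1AX rose by 0.21 (SE 0.06, adjusted p = 0.006). EIF5, which triggers GTP hydrolysis by eIF2 at the start codon, rose from 246 ± 16.4 to 276 ± 10.7 CPM (SD, n = 3 each) (log2 0.17, adjusted p = 0.023). With the offset the direction of both turned, EIF1AX to -0.18 (adjusted p = 0.0017) and EIF5 to -0.14 (adjusted p = 0.033). EIF5 also lost its call without control library 1 (0.079), shLIS1 library 1 (0.087) or shLIS1 library 2 (0.089).

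Of the 14 genes of eIF3, the large complex that holds the small ribosomal subunit ready for mRNA, 2 rose, 7 fell and 5 did not pass, with a median log2 fold change of -0.14. The calls were 64.3% of these genes, beside 48.4% of all genes. EIF3A (ENSG00000107581, chromosome 10, 119033670 to 119080823, minus strand, build hg 38), the largest subunit and a scaffold of the complex, stood at 376, 429 and 400.3 CPM in control and 617, 606 and 592 CPM in shLIS1 libraries. The lowest shLIS1 library was well above the highest control library. EIF3A rose from 402 ± 26.5 to 605 ± 12.2 CPM (SD, n = 3 each) (log2 0.59, SE 0.054, adjusted p = 2.4e-08) and was higher with the offset too (0.33). EIF3J, a loosely attached subunit, measured 149.7, 188 and 176 CPM in control and 206, 206 and 198 CPM in shLIS1 libraries, with control library 1 the lowest. Its rise of 0.25 (SE 0.068, adjusted p = 0.006) was 0.045 with the offset and did not pass there.

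EIF3K (ENSG00000178982, chromosome 19, 38619082 to 38636955, plus strand), a small peripheral subunit, went the other way, with 256, 266 and 272 CPM in control and 189.9, 187 and 184 CPM in shLIS1 libraries. The ranges were far apart, and it fell to 70.7% of the control mean (log2 -0.50, SE 0.052, adjusted p = 1.2e-07; -0.36 with the offset). EIF3L, which pairs with EIF3K in the complex, fell to 81.6% (log2 -0.29, adjusted p = 2.9e-04), with 41.1% of its exonic bases shared with another annotated gene on its strand. EIF3F, a subunit of the core, stood at 186, 198 and 199 CPM in control and 152, 153 and 147 CPM in shLIS1 libraries. It fell by 0.37 on the log2 scale (SE 0.052, adjusted p = 6.1e-06). With the offset the size depended on the transcript that set length and GC content: -0.74 for the longest transcript of 7540 bases and -0.18 for the principal one of 1254 bases, both called.

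EIF3G, which carries an RNA recognition motif, measured 175, 173 and 188 CPM in control and 135, 144 and 141 CPM in shLIS1 libraries. The groups did not overlap and it fell by 0.35 (SE 0.053, adjusted p = 1.4e-05), whereas the value with the offset was -0.053 and did not pass. EIF3I, a partner of EIF3G, fell to 83.6% (log2 -0.26, adjusted p = 3.9e-04; -0.16 with the offset). EIF3C and EIF3CL are near-identical genes on chromosome 16, and how reads that match both were counted is not given in the sources used here. EIF3CL, the lowest eIF3 gene by fold change, stood at 33.3, 39.8 and 34.2 CPM in control and 27.9, 21.7 and 22.8 CPM in shLIS1 libraries, a fall of 0.57 (SE 0.095, adjusted p = 7.2e-05). Beside it, EIF3C fell by 0.26 (adjusted p = 0.0015; -0.15 with the offset). Added together the pair went from 118 ± 3.14 to 92.6 ± 1.92 CPM, 78.7% of control, with no overlap between groups.

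The other 5 eIF3 genes did not pass the test. EIF3B, a core scaffold, stood at log2 -0.028, EIF3H at -0.022, EIF3D, which can bind the cap of some mRNAs, at -0.022, EIF3E at 0.055 and EIF3M at 0.10. Of these, EIF3M was called without control library 2 (adjusted p = 0.036). With the offset, EIF3M (-0.27) and EIF3H (-0.29) were lower and EIF3B (0.13) was higher, so that 2 of 14 were higher and 8 lower. The genes of this single complex thus spanned 67.5% (EIF3CL) to 151% (EIF3A) of their control levels. With EIF3C and EIF3CL added together, at 78.7%, the lowest was EIF3K at 70.7%.

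**Figure D2:**
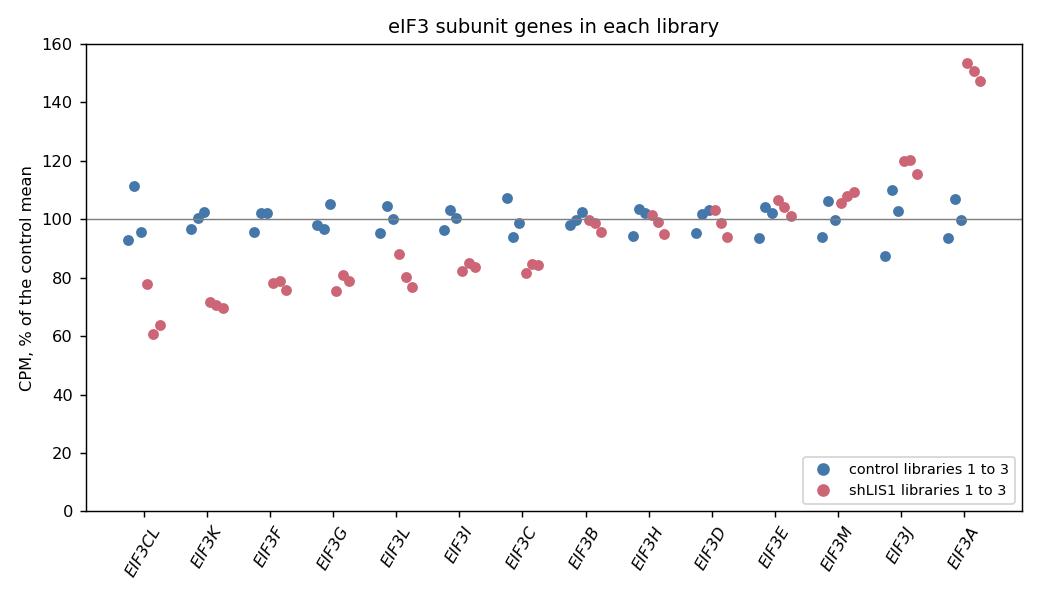
CPM of each eIF3 subunit gene in each of the 6 libraries, as % of the gene's control mean (y axis), with genes ordered by log2 fold change (x axis), blue points for control and red points for shLIS1 libraries. EIF3CL to EIF3C lie below the control points, EIF3B to EIF3M overlap them, and EIF3A stands at 151% of its control mean.

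In the eIF4 family, which recruits capped mRNA, 5 of 11 genes rose and 1 fell (4 higher and 3 lower with the offset). The calls without the offset were 54.5% of these genes, near the 48.4% of all genes. The rises were in the scaffold and helicase genes, and none of the 3 cap-binding genes passed the test. EIF4G1, the main scaffold of eIF4F, stood at 837, 772 and 798 CPM in control and 967, 946 and 942 CPM in shLIS1 libraries. Every shLIS1 library was above every control library, a rise of 0.25 (SE 0.048, adjusted p = 2.3e-04), and 0.39 with the offset. EIF4G3 (ENSG00000075151, chromosome 1, 20806292 to 21177285, minus strand), a second eIF4G scaffold, measured 85.4, 88.4 and 79.4 CPM in control and 136, 133 and 129 CPM in shLIS1 libraries. It rose to 157% of control, from 84.4 ± 4.6 to 133 ± 3.67 CPM (SD, n = 3 each) (log2 0.65, SE 0.055, adjusted p = 8.5e-09; 0.50 with the offset). EIF4G2, a relative of eIF4G that does not bind eIF4E, had the highest level per kilobase of these scaffolds (668 CPM per kilobase in control libraries), and stood at 1228, 1373 and 1343 CPM in control and 1587, 1521 and 1441 CPM in shLIS1 libraries. It rose by 0.21 (SE 0.051, adjusted p = 0.0022). With the offset the value was 0.012 and did not pass for the longest transcript, but was 0.23 (adjusted p = 4.2e-04) for the principal one.

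EIF4A2, an eIF4A helicase that unwinds mRNA near the cap, stood at 489, 524 and 513 CPM in control and 682, 715 and 706 CPM in shLIS1 libraries. The ranges were far apart, and EIF4A2 rose from 509 ± 18.1 to 701 ± 16.9 CPM (SD, n = 3 each) (log2 0.46, SE 0.049, adjusted p = 1.8e-07; 0.35 with the offset). EIF4A1, the paralogue that most cells express more strongly, was counted at only 4.17, 3.08 and 3.09 CPM in control and 6.03, 6.45 and 6.11 CPM in shLIS1 libraries, from 65, 62 and 63 and 130, 114 and 141 reads. Its counts rose by 0.86 (SE 0.158, adjusted p = 1.4e-04; 0.92 with the offset). These counts are uncertain, because 48.6% of the exonic bases of EIF4A1 lie within other genes annotated on the same strand, among them the readthrough transcript SENP3-EIF4A1, which had 1 to 11 counts a library. Whether shared reads were dropped or assigned is not given in the sources used here. EIF4A3, the related helicase of the exon junction complex, stood at -0.11 and did not pass, except without control library 1 (adjusted p = 0.034).

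EIF4E, the cap-binding protein, measured 53.2, 59.4 and 55.0 CPM in control and 58.5, 59.7 and 55.2 CPM in shLIS1 libraries. The groups overlapped (log2 0.048, SE 0.066, adjusted p = 0.58), while with the offset EIF4E was lower (-0.43, adjusted p = 2.5e-06). EIF4E2, a cap-binding homologue that represses translation, stood at 80.6, 82.9 and 81.1 CPM in control and 77.1, 75.8 and 81.4 CPM in shLIS1 libraries, with shLIS1 library 3 inside the control range (log2 -0.060, adjusted p = 0.40). With the offset it was lower (-0.14, adjusted p = 0.029) for the longest transcript, but stood at 0.073 (adjusted p = 0.26) for the principal one. EIF4E3, a divergent cap-binding homologue, stood at 26.3, 27.1 and 24.0 CPM in control and 23, 24.0 and 25.7 CPM in shLIS1 libraries, also overlapping (log2 -0.089, adjusted p = 0.39), but at -0.60 with the offset (adjusted p = 1.0e-06). Of the helicase partners, EIF4H fell from 607 ± 3.57 to 549 ± 9.22 CPM (SD, n = 3 each) (log2 -0.14, adjusted p = 0.015), and EIF4B stood at 0.012 and did not pass. The call of EIF4H was lost without control library 3 (0.094), shLIS1 library 2 (0.052) or shLIS1 library 3 (0.074), and with the offset (-0.063).

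The genes that govern the joining of the ribosomal subunits went in opposite directions. EIF5B (ENSG00000158417, chromosome 2, 99337371 to 99401326, plus strand), the GTPase that joins the large subunit to the small one at the start codon, stood at 105, 129 and 111 CPM in control and 236, 244 and 229 CPM in shLIS1 libraries. The lowest shLIS1 library held 229 CPM against 129 CPM in the highest control library. EIF5B rose from 115 ± 12.7 to 236 ± 7.65 CPM (SD, n = 3 each), 206% of control, the largest change among the 58 genes (log2 1.04, SE 0.066, adjusted p = 6.3e-10). With the offset the rise was 0.65 (adjusted p = 3.7e-10). EIF6, which binds the large subunit and keeps it from joining too early, stood at 201, 216 and 225 CPM in control and 170.1, 166 and 151 CPM in shLIS1 libraries. All shLIS1 libraries were lower and EIF6 fell to 76.0% (log2 -0.40, SE 0.058, adjusted p = 1.1e-05), with -0.12 and no call with the offset.

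**Figure D3:**
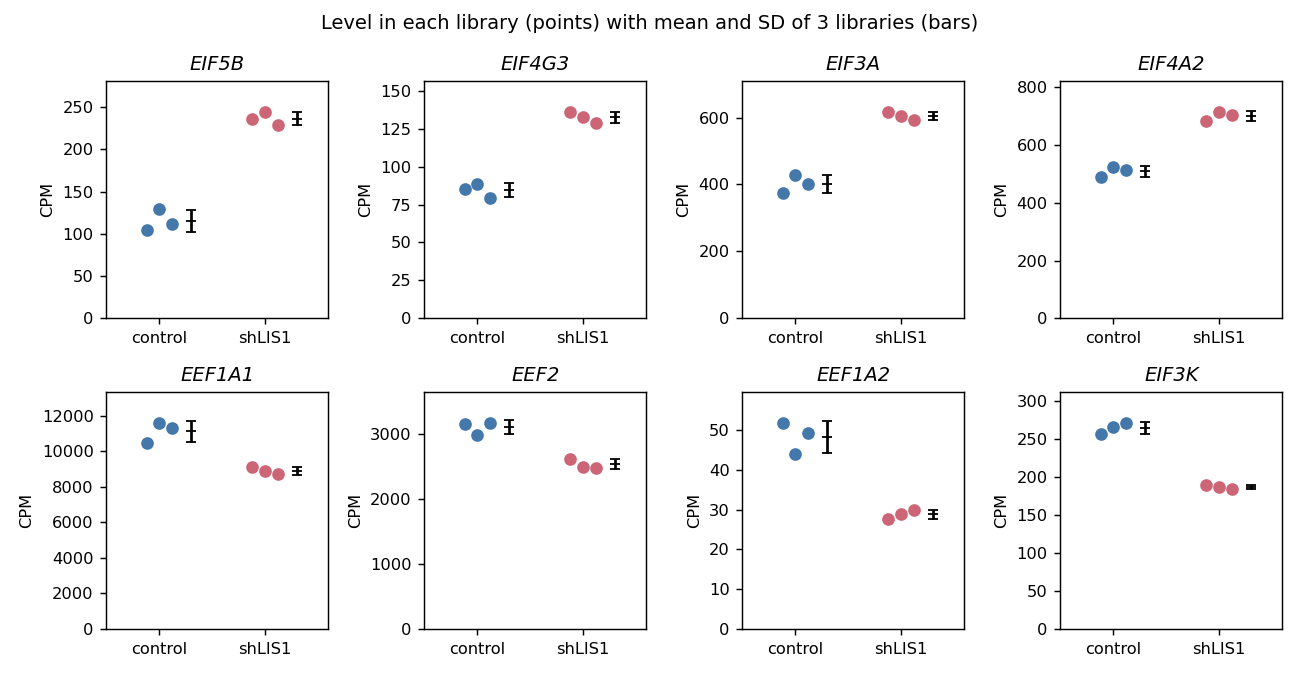
CPM (y axis, from 0) of 8 translation factor genes in each control (blue) and shLIS1 (red) library, with the mean and SD of 3 libraries beside the points. EIF5B, EIF4G3, EIF3A and EIF4A2 are higher in all 3 shLIS1 libraries, and EEF1A1, EEF2, EEF1A2 and EIF3K are lower in all 3.

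Of the 6 genes of eEF1 and eEF2 in the table, 5 fell, none rose, and the median log2 fold change was -0.32. The falls were 83.3% of these genes, beside 24.9% of all genes. With the offset 5 of the 6 were lower too, then with EEF1E1 and without EEF2. EEF1A1 (ENSG00000156508, chromosome 6, 73489308 to 73525587, minus strand), the carrier of aminoacyl-tRNA and the member with the highest level per kilobase, stood at 10488, 11614 and 11290.2 CPM in control and 9142, 8870.1 and 8696 CPM in shLIS1 libraries. Each shLIS1 library was below each control library. EEF1A1 fell to 80.0% of control, from 11131 ± 579.8 to 8903 ± 224 CPM (SD, n = 3 each) (log2 -0.32, SE 0.04, adjusted p = 1.4e-06; -0.45 with the offset). It has many processed pseudogenes, and reads shared with them may have been counted elsewhere. EEF1A2 (ENSG00000101210, chromosome 20, 63488013 to 63499239, minus strand), the isoform usual in muscle and neurons, stood at 51.9, 43.9 and 49.2 CPM in control and 27.6, 28.8 and 30.0 CPM in shLIS1 libraries. The groups were far apart, and with 59.7% of control this was the largest fall among the 58 genes (log2 -0.74, SE 0.077, adjusted p = 1.3e-07; -0.37 with the offset).

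The exchange factors of eEF1A that were among the members fell as well. EEF1G, the gamma subunit of the eEF1B complex, was not among them. EEF1D, the delta subunit, stood at 369, 354 and 373 CPM in control and 262, 251 and 242 CPM in shLIS1 libraries. It fell to 68.9% (log2 -0.54, SE 0.054, adjusted p = 7.4e-08; -0.23 with the offset), and 34.0% of its exonic bases overlap a gene on the other strand. EEF1B2, the catalytic beta subunit, was steady within groups and fell from 318 ± 1.73 to 257 ± 3.53 CPM (SD, n = 3 each) (log2 -0.31, adjusted p = 4.4e-05; -0.29 with the offset). EEF1E1, named for this complex but known as a part of the tRNA synthetase complex, stood at -0.034 and did not pass, although it was lower with the offset (-0.25, adjusted p = 0.034).

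EEF2 (ENSG00000167658, chromosome 19, 3976056 to 3985463, minus strand), the translocase, measured 3159.8, 2987 and 3182 CPM in control and 2626, 2503 and 2487 CPM in shLIS1 libraries. No shLIS1 library reached the control range, and EEF2 fell to 81.6% (log2 -0.29, SE 0.043, adjusted p = 1.0e-05). With the offset the difference was -0.082 (adjusted p = 0.088) and did not pass. EEF2K, the kinase that inactivates eEF2, stood at 45.5, 43.3 and 39.6 CPM in control and 41.6, 41.3 and 38.1 CPM in shLIS1 libraries. The groups overlapped (log2 -0.085, adjusted p = 0.36).

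The remaining 5 modifying enzymes did not pass either. These were EEF2KMT (-0.051) and EEF1AKMT1 (-0.10), EEF1AKMT2 (0.25), EEF1AKMT3 (0.046) and EEF1AKMT4 (-0.25), which are named as methyltransferases of lysines in eEF2 and eEF1A, with values on the log2 scale. They were low, between 6.0 and 13.8 CPM on average in control libraries. EEF1AKMT4 was called as lower without control library 1 (adjusted p = 0.0075), and it shares 26.3% of its exonic bases with a readthrough transcript. EIF1AD, which resembles eIF1A, stood at -0.086 and did not pass.

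EIF5A, the factor that carries the modified lysine hypusine and helps ribosomes past stretches such as consecutive prolines, stood at 898, 952 and 981 CPM in control and 789, 816 and 756 CPM in shLIS1 libraries. All shLIS1 libraries were lower, and the fall was 0.26 on the log2 scale (SE 0.05, adjusted p = 2.0e-04). This call was lost and the sign turned with the offset, to a log2 fold change of +0.0075 (adjusted p = 0.92). EIF5A2, its less widely expressed paralogue, measured 19.8, 24.0 and 24.3 CPM in control and 22.5, 22.7 and 22.2 CPM in shLIS1 libraries. Control library 1 was lowest and the groups overlapped (log2 -0.019, adjusted p = 0.88), whereas with the offset EIF5A2 was lower (-0.49, adjusted p = 1.5e-05). EIF5AL1, a near copy of EIF5A, stood at -0.12 and did not pass, although it was lower with the offset (-0.24, adjusted p = 0.019). The sum of EIF5A and EIF5AL1 was 83.6% of its control level.

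Levels between genes can be set side by side only per length. Per kilobase of the principal transcript, EEF1A1 stood at 2506 CPM in control libraries, followed by EEF2 at 983, EIF4G2 at 668, EIF5A at 624 and EEF1B2 at 377 CPM per kilobase. The place of EIF4G2 depends on this choice, since its principal transcript has 1969 bases and its longest 4001. EIF5B, with the largest rise, stood at 19.9, and EEF1A2, with the largest fall, at 24.0 CPM per kilobase. Together the 58 genes took 2.60, 2.76 and 2.73% of all counts in the control libraries and 2.51, 2.47 and 2.44% in the shLIS1 libraries. The share was lower in every shLIS1 library, by 0.224 percentage points on average (exact permutation test, two-sided, p = 0.1, the smallest that 3 against 3 allows). EEF1A1 alone went from 1.11 ± 0.0560% (SD, n = 3) to 0.894 ± 0.0180% (SD, n = 3) and EEF2 from 0.309 ± 0.0106% (SD, n = 3) to 0.255 ± 0.00675% (SD, n = 3) of all counts. Without these 2 genes the share of the other members was 1.28 ± 0.0392% in control and 1.33 ± 0.0139% in shLIS1 libraries (SD, n = 3), a difference of 0.0420 percentage points in the other direction (exact permutation test, two-sided, p = 0.2).

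Balances between paralogues were read as ratios of counts within a library, for 9 pairs of genes, so that library scaling does not enter. EIF4G3 stood at 0.105 ± 0.00809 in control and 0.139 ± 0.00220 in shLIS1 libraries (SD, n = 3) counts per count of EIF4G1, with no overlap between groups (log2 0.41; 0.11 with the offset). EEF1A2 per EEF1A1 was lower in all 3 shLIS1 libraries (log2 -0.42), and EIF5A2 per EIF5A was higher in all 3 (log2 0.25), but both turned with the offset, to 0.077 and -0.49. EIF4A2 per EIF4A1 went from 151 ± 29.4 to 113 ± 2.31 (SD, n = 3) (log2 -0.40; -0.57 with the offset), subject to the uncertain counts of EIF4A1. The ratio of the eIF2 subunit genes EIF2S2 and EIF2S1 was 1.5 ± 0.0139 in control and 1.55 ± 0.0178 in shLIS1 libraries (SD, n = 3) (log2 0.049; 0.31 with the offset). For each of these 5 ratios the exact permutation test (two-sided) gave p = 0.1, the smallest possible here, and 0.18 after Benjamini-Hochberg adjustment over the 9. The ratios EIF4G2 to EIF4G1 (log2 -0.040), EIF1B to EIF1 (-0.020), EIF4E2 to EIF4E (-0.11) and EIF4E3 to EIF4E (-0.14) overlapped between groups. With the offset these 4 stood at -0.37, -0.073, 0.29, where the direction turned, and -0.17. For the ratios EIF4G2 to EIF4G1 and EIF4E2 to EIF4E the exact permutation test with the offset gave p = 0.1. The offset values of all ratios rest on the longest transcript. With the principal transcript the single-gene values changed, from 0.012 to 0.23 for EIF4G2 and from -0.14 to 0.073 for EIF4E2.

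Member starts on chromosome 8 were not read, so EEF1D, EIF3E and EIF3H are not counted here. Of the 58 genes, 46 had a start that was read in the RefSeq table. A TOP start, as spelled out for the sequences shown above, stood at 1 or more annotated starts of 13 of these 46 genes, 28.3%. It stood at 20.6% of the 63 member starts, beside 4.07% of all 35116 starts in the table, chromosome 8 included. Read on the transcript strand only, the 13 genes were EEF1A1, EEF1B2, EEF2, EIF2A, EIF2D, EIF2S3, EIF2S3B, EIF3D, EIF3F, EIF3K, EIF3M, EIF4A2 and EIF4B. Of these, 3 rose, 6 fell and 4 did not pass, with a median log2 fold change of -0.022 and a range from -0.50 (EIF3K) to 0.46 (EIF4A2). The 33 genes without the run held 8 rises, 9 falls and 16 that did not pass, with a median of -0.085 and a range from -0.40 (EIF6) to 1.04 (EIF5B). Over all genes tested, 23.5% rose and 24.9% fell, with a median of -0.011. Genes with the same opening letters went both ways: EEF1A1 and EIF4A2 both begin with a cytosine and a run of T, and stood at 80.0% and 138% of control. The part of the start in these changes was not tested. With the offset, 1 of the 13 genes with the run was higher and 6 were lower, with a median of -0.098. Of the 33 without it, 5 were higher and 14 lower, with a median of -0.084. Over all genes, 17.7% were higher and 24.0% lower with the offset. A match describes the annotated start only, and transcript starts used in these cells were not measured. A second reading took 9 genes in the table that were listed as known TOP messengers. Of these 9, 1 rose, 5 fell and 3 did not pass, with a median log2 fold change of -0.29. With the offset none was higher and 5 were lower, with a median of -0.23. This list too was chosen with earlier results of these data known.

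Fold changes followed base composition across the members. Over the 58 genes, Spearman's rho of the log2 fold change with the GC content of the longest transcript was -0.593, and with its length 0.324, as a description across genes that share the same 6 libraries. Over all 14491 genes with known length and GC content the values were -0.501 and 0.292. Members that rose had a median transcript length of 4001 bases and a median GC content of 42.7%, and members that fell 2172 bases and 52.7%. With the offset, which is fitted to take out such trends over all genes, the values across members were 0.138 for GC content and -0.135 for length. Of the 33 called members, 20 were called in the same direction with the offset, 11 were not called, and 2, EIF1AX and EIF5, were called in the opposite direction, while 10 further members were called only with it. The rises of EIF5B, EIF4A1, EIF4G3, EIF3A, EIF4A2 and EIF4G1, and 14 falls, were called without the offset and with it for either transcript choice. Whether the trend is technical or belongs to the cells was not tested.

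**Figure D4:**
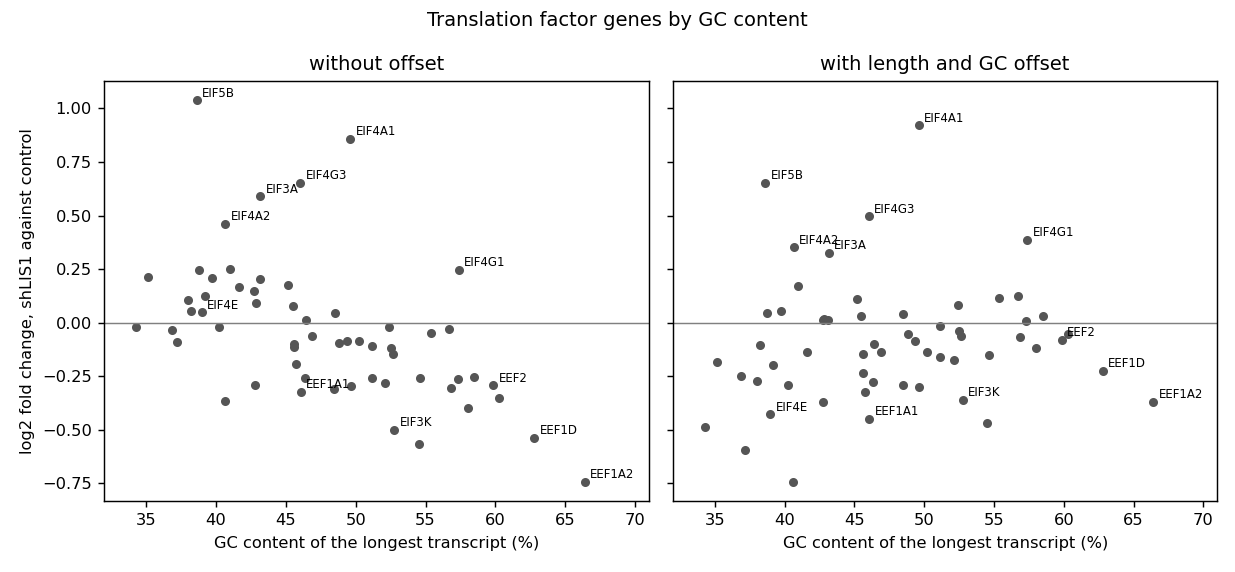
Log2 fold change of the 58 genes (y axis, shLIS1 against control) against GC content of the longest transcript (x axis, %), without the offset on the left and with it on the right, each point a gene. The slope on the left (Spearman's rho -0.593) is taken out on the right (0.138), as the offset is fitted to do. There EIF5B, EIF4A1, EIF4G3, EIF3A, EIF4A2 and EIF4G1 remain above 0 and EEF1A2, EEF1A1 and EIF3K below.

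Other genes of translation, only some of which act on the factors, were read from 8 lists. Over these lists, 24 of 68 genes tested rose, 35.3% beside 23.5% of all genes, and 15 fell, 22.1% beside 24.9% of all genes. With the offset 18 were higher, 26.5% beside 17.7% of all genes, and 22 lower, 32.4% beside 24.0%. Each list is short, and its counts are read against the same shares of all genes.

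Of 8 genes that phosphorylate eIF2 or reverse it, with their activators and inhibitors, 6 rose and none fell, and with the offset 4 were higher and none lower. EIF2AK2, the kinase activated by double-stranded RNA, rose by 0.64 on the log2 scale (adjusted p = 1.7e-08), and by 0.17 with the offset (adjusted p = 0.012). PPP1R15B (0.43; 0.21 with the offset) and PPP1R15A (0.41; 0.65 with the offset), which direct a phosphatase to eIF2, were called in both fits. IMPACT, an inhibitor of the amino acid sensing kinase, rose by 0.43, a call that was lost with the offset (0.13, adjusted p = 0.22).

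Of 15 genes that control the cap complex or belong to mTOR signalling, which drives cap-dependent initiation, 5 rose and 5 fell, and with the offset 4 were higher and 5 lower. EIF4EBP1, the repressor of eIF4E, fell by 0.65 (adjusted p = 5.5e-08), RPS6KB2 by 0.60, MLST8 by 0.58 and DAP by 0.34. All 4 were also lower with the offset, at -0.32, -0.24, -0.21 and -0.20. In the other direction, RPS6KB1, the main S6 kinase, rose by 0.71 (adjusted p = 8.0e-08), GIGYF2 by 0.31, GIGYF1 by 0.24 and MTOR by 0.18. These 4 were also higher with the offset, at 0.32, 0.14, 0.42 and 0.16.

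Among 6 helicases and partners of initiation, 4 rose and 1 fell, and with the offset 2 were higher and 1 lower. DDX3X rose by 0.53 (adjusted p = 8.0e-07; 0.23 with the offset) and DHX33 by 0.32 (0.25 with the offset), and both were called in both fits. DHX29 rose by 0.36 and DHX9 by 0.20, and both calls were lost with the offset (0.068, adjusted p = 0.44, and 0.017, adjusted p = 0.82). CTIF, a partner of the nuclear cap-binding complex, fell by 0.50 and was lower with the offset (-0.32).

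Of 6 genes for poly(A)-binding proteins and their partners, PABPC1L rose by 0.59 (0.69 with the offset) and PABPC1 fell by 0.17 (-0.16 with the offset), and with the offset 2 were higher and 4 lower. Of 7 tested termination and recycling genes, 3 rose and 1 fell, whereas with the offset none was higher and 5 were lower. ABCE1, which splits ribosomes after termination, rose by 0.40 and the release factor ETF1 by 0.16, and both calls were lost with the offset (0.10, adjusted p = 0.085, and -0.018, adjusted p = 0.81). HBS1L rose by 0.16 but was lower with the offset (-0.28, adjusted p = 1.7e-04). PELO, a partner of HBS1L in ribosome rescue, fell by 0.31 (-0.46 with the offset).

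Of 9 enzymes that make hypusine on eIF5A or diphthamide on eEF2, 1 rose and 2 fell, and with the offset 3 were higher and 2 lower. DNAJC24 rose by 0.34 (0.24 with the offset, also called). DOHH, the hydroxylase of hypusine, and DPH2 each fell by 0.27. Both calls were lost with the offset, where DOHH turned to +0.11 (adjusted p = 0.26) and DPH2 stood at -0.063 (adjusted p = 0.49).

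Organelle and selenoprotein factors moved in both directions too. Of 11 mitochondrial translation factors, 3 rose and 2 fell, and with the offset 2 were higher and 3 lower. MTIF2 rose by 0.55 (adjusted p = 1.2e-06; 0.42 with the offset) and GUF1 by 0.47 (0.17 with the offset), while GFM1 rose by 0.21 but stood at -0.020 with the offset (adjusted p = 0.79). TUFM, the mitochondrial counterpart of eEF1A, fell by 0.44 (adjusted p = 6.6e-07; -0.19 with the offset) and GFM2 by 0.27 (-0.43 with the offset). Of 6 selenocysteine factors, 1 rose and 3 fell, and with the offset 1 was higher and 2 lower. SECISBP2 rose by 0.45 (0.34 with the offset), and SEPHS2 fell by 0.27 and SEPHS1 by 0.20 (-0.21 and -0.26 with the offset). EEFSEC, the selenocysteine elongation factor, fell by 0.30, a call that was lost with the offset (1.5e-04, adjusted p = 1.0).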

How the data were processed

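Polyadenylated RNA of SCC25 cells was sequenced in 3 control and 3 shLIS1 libraries. Per the labels' protocols, libraries marked strand with dUTP. The authors deposited raw read counts per gene, not normalized, with gene symbols and coordinates on build hg 38, per the submitters' processing notes. Aligner, counter, annotation release and strand setting were not given in the sources used here, so genes with near-identical copies, overlapping genes and antisense pairs are uncertain.

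Counts were tested with edgeR 4.0.16 (R 4.3.3): filterByExpr (minimum count 10, total 15), TMM scaling, robust quasi-likelihood fit on group, and Benjamini-Hochberg adjustment over all 14964 genes tested, with a threshold of 0.05. Each SE was the size of the log2 fold change divided by the root of its F statistic. Levels are TMM-scaled CPM, as mean ± SD of 3 libraries. The length and GC offset smooths each library's deviation from the mean library over log2 transcript length and GC content (mgcv 1.9.3, GENCODE release 29, longest transcript, known for 96.8% of genes tested). The same offset from principal transcripts was added after the data were seen. The alternatives also comprised DESeq2 1.42.0, limma-voom (limma 3.58.1), upper quartile or RLE scaling, unfiltered counts or a minimum of 1 CPM in 3 libraries, a fit that was not robust, a replicate block and leaving out each library. The fitting step was also run on simulated counts before use.

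The members and gene lists were chosen with earlier results of these data known. Values in every library are given for the 8 largest rises and falls past the threshold (mean 5 CPM or more), for paralogue groups, EEF2, EEF2K, EIF2A, EIF6, and the highest and lowest eIF3 and eIF2B genes. From each list outside the members, up to 4 called genes with the smallest p in each direction are named. Chi-square values per gene between libraries were 2.64 to 10.9 within groups and 40.3 to 54.1 between groups, so no library was counted as a duplicate. Ratios and shares were tested with exact permutation tests over libraries.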

Additional observations from a re-analysis of the deposited data

How the results depend on the processing

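The 13 rises and 20 falls among the members were each within 1.5 times of the reported count under RLE and upper quartile scaling, both other filters, DESeq2, limma-voom and the fit without robust estimation. DESeq2 did not call EIF1B and EIF2B2; without a filter EIF2B2, EIF4H and EIF2S3 were not called. Upper quartile scaling called EIF2B5 and EIF4A3, lost EIF2S3 and EIF5, and turned EIF4B to -0.027.

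With the length and GC offset, 7 members were higher, and the sign turned for EIF5A (0.0075), EEF1AKMT4 (0.030), EEF2KMT (0.11), EIF3B (0.13), EIF3D (0.083), EIF4B (-0.098), EIF4E (-0.43), EIF3E (-0.11), EIF3M (-0.27), EIF2S1 (-0.20), EIF5 (-0.14) and EIF1AX (-0.18), and for the log2 ratios EEF1A2/EEF1A1 (0.077), EIF5A2/EIF5A (-0.49) and EIF4E2/EIF4E (0.29). From principal transcripts, 8 were higher, and the sign turned for EEF1AKMT4 (7.1e-04), EIF4E2 (0.073), EEF2KMT (0.10), EIF3B (0.12), EIF3D (0.076), EIF4B (-0.11), EIF4E (-0.44), EIF3E (-0.13), EIF3M (-0.29), EIF2S1 (-0.22), EIF2S3 (-0.016), EIF5 (-0.15) and EIF1AX (-0.22). Without EEF1A1 and EEF2, the difference in the members' share of counts turned to 0.042 percentage points. The cause was not tested.

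With the replicate number as a block, 13 members rose and 20 fell, and no call of a member changed. With block and offset together, 6 were higher, and the values that turned were EIF5A 0.0087, EEF1AKMT4 0.062, EEF2KMT 0.11, EIF3B 0.13, EIF3D 0.083, EIF4B -0.097, EIF4E -0.43, EIF3E -0.11, EIF3M -0.27, EIF2S1 -0.20, EIF5 -0.14 and EIF1AX -0.18. The numbers did not pair the libraries: deviations of same-numbered libraries correlated at -0.04, 0.03 and -0.04, and not every library correlated best with its own number.

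Leaving out each library in turn turned the sign of some members that did not pass: EIF4B ranged from -0.025 to 0.042, EIF3H from -0.069 to 0.010, EIF5A2 from -0.11 to 0.037, EEF2KMT from -0.11 to 0.0038, EEF1E1 from -0.11 to 0.033, EIF3D from -0.063 to 0.013, EIF2S3B from -0.029 to 0.22 and EEF1AKMT3 from -0.066 to 0.13. The log2 ratio EIF4G2/EIF4G1 ranged from -0.12 to 0.019 and EIF1B/EIF1 from -0.097 to 0.029. Depth limited the low genes most: EIF4A1 rested on 62 to 141 counts a library.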
